A study of Mus musculus with 15 samples.

Results

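The genes described here are 9 genes used to recognise monocytes and macrophages in the mouse. They are Csf1r, Ccr2, Cx3cr1, Cd14, Mrc1, Msr1, Adgre1, Lyz2 and Ly6c2, taken by gene name. Each was found once among the 53379 rows that name a gene, and all 9 entered the test, which needed 3 libraries with 10 or more normalized reads and took in 12673 genes. Cx3cr1 met this with exactly 3 libraries.

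The study sequenced poly(A) RNA from mouse fetal liver cells immortalised with the MLL-ENL oncogene, to ask whether the transformed state depends on C/EBP factors and how cells survive when C/EBPα and C/EBPβ are both removed. Lines C1 and C2 come from different mice, and all groups grew in IL-3 at 10 ng/ml. C1 WT and C2 WT carry floxed Cebpa and Cebpb alleles that were not deleted. C1 dKO and C2 dKO lack Cebpa and Cebpb after treatment with a cell-permeable Cre protein, and their labels add expression of GFP. C1 LAPS are C1 dKO cells that express GFP and the rat C/EBPβ isoform LAP*. Each group has 3 libraries, from RNA taken from 1 culture line at different times, so the p-values below measure the spread within a line. The dKO lines are rare subclones that grew out after deletion. The WT labels name no GFP, so knockout, clonal selection and vector cannot be told apart.

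Monocytes leave the bone marrow under the control of chemokine receptors, circulate, and can become macrophages in tissues. Their growth and survival depend on signals from the CSF1 receptor, and the surface proteins and enzymes encoded by the genes below serve to find microbes, take up particles and break down bacterial walls. Factors of the C/EBP, ETS and RUNX families are known regulators of many of these genes in myeloid progenitors.

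In C1, loss of Cebpa and Cebpb went with lower levels of nearly all of these markers, between 1.55-fold for Ly6c2 and 5.80-fold for Mrc1 among those that passed the test. In C2, Ccr2, Mrc1 and Cd14 fell as well, but Adgre1 rose 4.85-fold, and Csf1r, already very low in C2 WT cells, was not called. Expression of LAP* in C1 dKO cells raised 0 of the 9 genes by the test, where only 1.43% of all tested genes were called higher, so this count says little about these genes. Lyz2 fell further, by a factor of 2.24.

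Reads on genes numbered 9212237 to 13613500 per library (median 11885279). Values are normalized reads, that is reads per gene divided by 1 size factor per library, and differences are on the log2(normalized reads + 1) scale, where a gene with few reads shows less than its true change. Cebpa and Cebpb were listed at 0 in every library of C1 dKO and C2 dKO. Their lowest values in WT libraries were 903 for Cebpa and 1353 for Cebpb. In C1 LAPS the Cebpb row, in which rat and mouse reads were not told apart, held 3106 ± 961 normalized reads (mean ± SD, n = 3). Between means, Cebpe was 5.17-fold higher in C1 dKO than in C1 WT cells (adjusted p = 8.0e-11). It was 4.29-fold higher in C2 dKO than in C2 WT cells (adjusted p = 3.6e-10) and 4.44-fold higher in C1 LAPS than in C1 WT cells (adjusted p = 3.3e-10). All p-values are from limma over the 12673 genes with Benjamini-Hochberg adjustment, and a gene is called where the adjusted p is under 0.05.

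**Figure D1:**
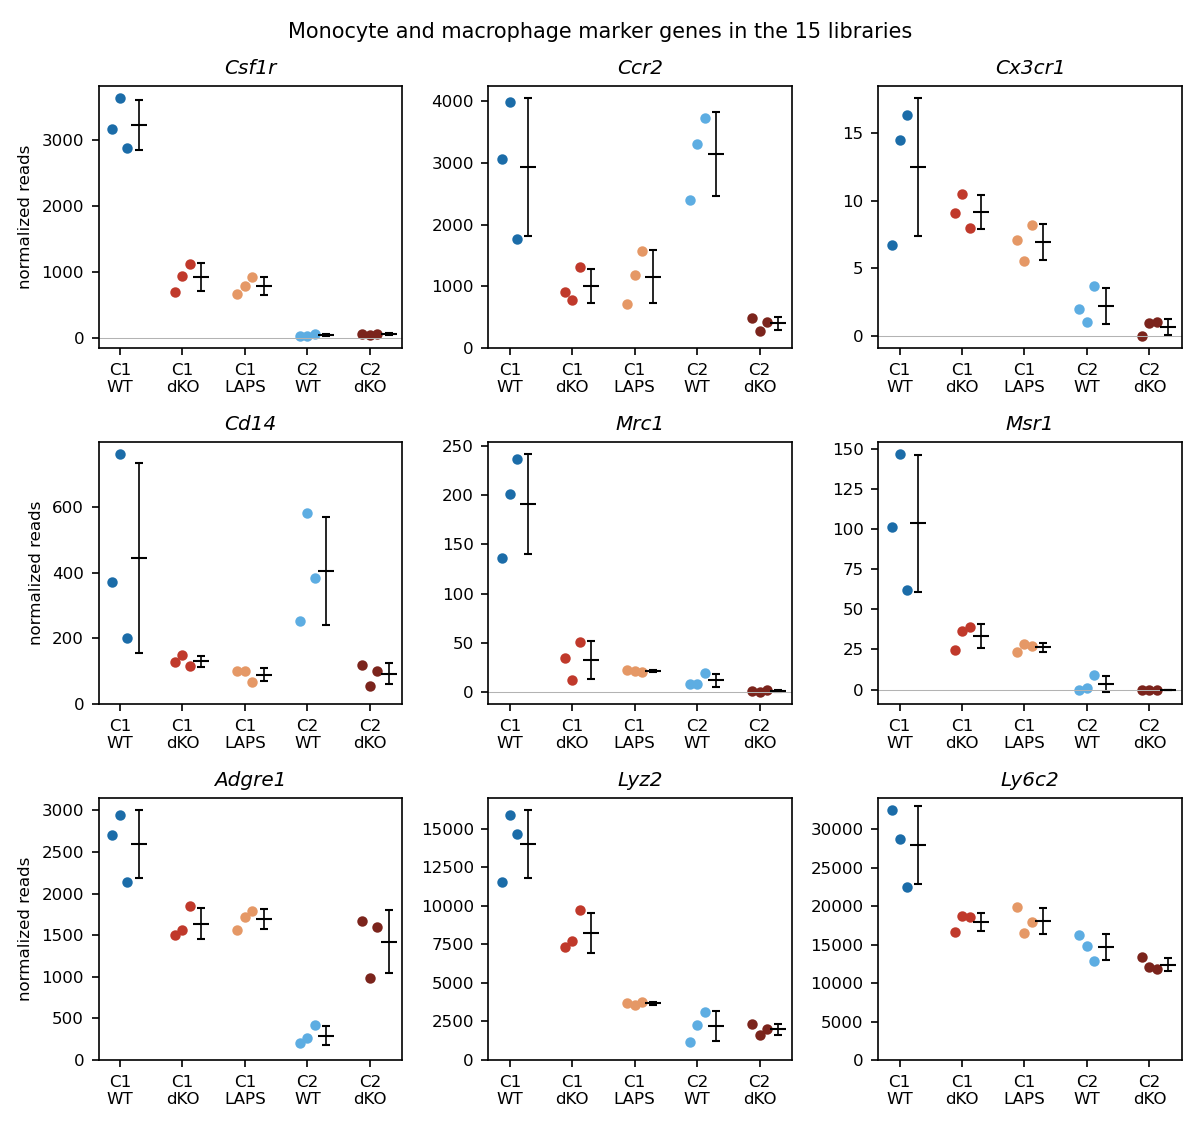
Normalized reads (vertical axis, linear, one scale per panel) of the 9 marker genes in the 15 libraries. Coloured points are single libraries, the black dash is the mean of the 3 libraries of a group and the bar is ± 1 SD. Ccr2, Cd14 and Mrc1 were lower in dKO than in WT libraries of both lines, whereas Adgre1 was lower in C1 dKO and higher in C2 dKO libraries.

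Of the 9 genes, 7 were called lower and 0 higher in C1 dKO than in C1 WT cells, where 19.9% of all tested genes were called lower and 17.1% higher. In C2 dKO against C2 WT cells, 3 were called lower and 1 higher, against 20.1% lower and 17.4% higher of all tested genes. The median log2 difference of the 9 genes fell by 1.51 in C1 and 0.94 in C2, beside medians over all tested genes of -0.01 and -0.03. The C2 median is the value of Cx3cr1, which had few reads and was not called. It was -2.06 with a pseudocount of 0.1 and -0.34 with 5, -0.44 under quantile normalization, -1.56 by edgeR and -1.72 by DESeq2, and -0.52 without C2 WT replicate 3 and -0.60 without C2 dKO replicate 1. Cd14, Ccr2 and Mrc1 were called lower in both lines, which is 3 of the 7 genes lower in C1 and all 3 lower in C2. Of all tested genes 8.36% were lower in both, which is 42.1% of those lower in C1 and 41.6% of those lower in C2. The lines share no libraries. In bulk RNA, fewer cells of a type and less RNA per cell cannot be told apart.

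**Figure D2:**
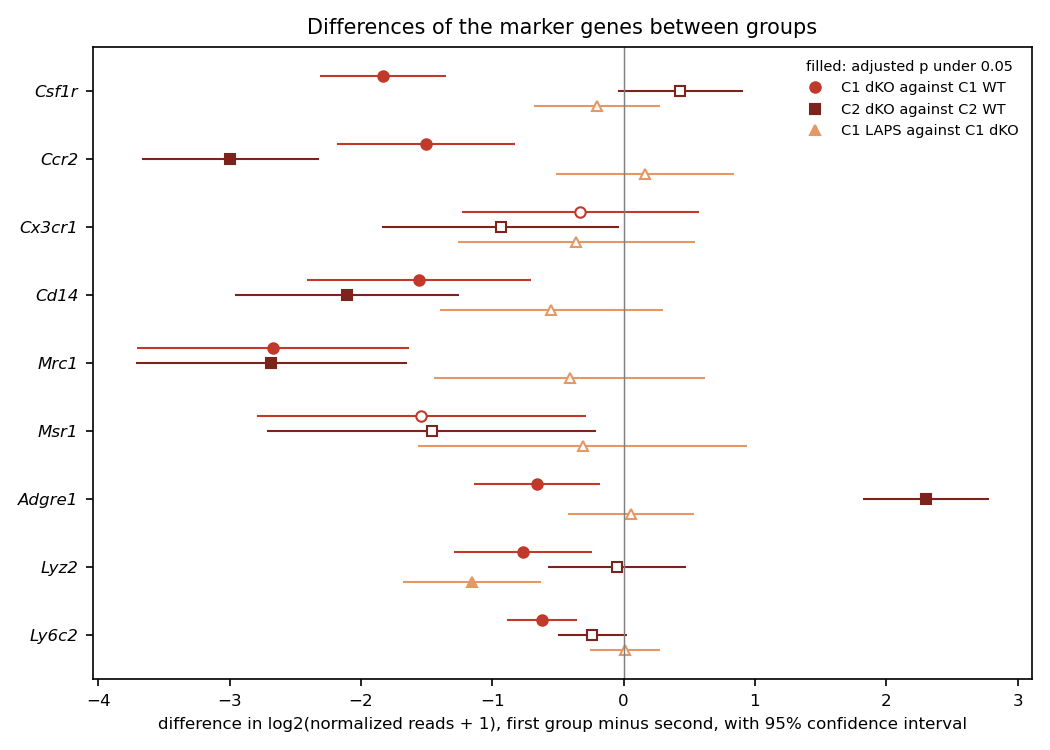
Difference in log2(normalized reads + 1) of each marker gene in the knockout comparison of C1 (circles), that of C2 (squares) and LAPS against dKO in C1 (triangles). Points are limma estimates with 95% confidence intervals, filled where the adjusted p was under 0.05. Adgre1 lies at -0.66 in C1 and at 2.30 in C2, and of the triangles only Lyz2 is filled.

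Csf1r encodes the receptor tyrosine kinase for CSF1 and IL-34, the main growth factor receptor of the monocyte lineage. The gene lies at chr18:61100598-61132149 on the + strand of mm10. The C1 WT libraries had 3171, 3646.5 and 2893 normalized reads and the C1 dKO libraries 696.5, 945 and 1120.0. The groups did not overlap, and the level fell by 1.83 ± 0.22 (log2 difference ± SE, adjusted p = 9.4e-06), which is 3.52-fold between the means. In C2, Csf1r was near the bottom of its range, at 35.9, 36.7 and 65.1 normalized reads in WT and 67.0, 46.7 and 68.7 in dKO libraries. These ranges overlapped, and the difference of 0.43 was not called (95% interval -0.05 to 0.91, adjusted p = 0.15). It was called without C2 WT replicate 3 (0.71, adjusted p = 0.015) and under quantile normalization (0.60, adjusted p = 0.035). The knockout effect differed between the lines by 2.27 ± 0.32 (adjusted p = 7.0e-05). Some of its exon sequence, 873 of 5774 bases, also lies in exons of Hmgxb3 on the other strand, and whether the counting used the strand is not given in the sources used here.

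Ccr2 encodes the receptor for CCL2 and related chemokines and lets classical monocytes leave the marrow. It lies at chr9:124101950-124113557 on the + strand. C1 WT libraries had 3063, 3987 and 1763 normalized reads, and C1 dKO libraries 913, 780.4 and 1319, with no overlap. In C2 the gap was wider, from 2392, 3308 and 3720 in WT to 494, 281 and 417 in dKO libraries. Ccr2 fell by 1.51 ± 0.32 in C1 (adjusted p = 0.0015) and by 2.99 ± 0.32 in C2 (adjusted p = 2.6e-06), or 2.93-fold and 7.90-fold between means. The knockout effect in C2 minus that in C1 was -1.49 ± 0.45 on the log2 scale (adjusted p = 0.020). This difference between the lines was not called without C1 dKO replicate 3, C2 WT replicate 3 or C2 dKO replicate 2 (adjusted p = 0.058, 0.053 and 0.054).

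Cx3cr1, the receptor of the membrane-bound chemokine fractalkine and a mark of patrolling monocytes and tissue macrophages, was close to the limit of detection. The gene lies at chr9:119901616-120069879 on the - strand, and 78 of its exon bases overlap those of Gm33858 on the other strand. Its highest library, in C1 WT, had 16.3 normalized reads, and C1 dKO and C1 LAPS libraries lay between 5.53 and 10.5. The fall of 0.33 in C1 was not called (95% interval -1.23 to 0.57, adjusted p = 0.58), and the WT and dKO ranges overlapped. In C2 only 7 reads were seen over the WT libraries and 2 over the dKO libraries. Their ratio after scaling for depth was 3.35, with a 95% counting interval of 0.64 to 33.0, and the log2 difference of -0.94 was not called (95% interval -1.84 to -0.03, adjusted p = 0.097).

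Cd14 encodes the co-receptor that hands bacterial lipopolysaccharide to the TLR4 complex, and it lies at chr18:36725067-36726798 on the - strand. It varied most between C1 WT libraries, with 372, 763 and 199.7 normalized reads (445 ± 289), against 128, 149 and 115 in C1 dKO. In C2 it had 254, 581 and 384 in WT and 120.3, 56.4 and 101.9 in dKO libraries. The lowest WT library still lay above the highest dKO library in each line. Cd14 fell by 1.56 ± 0.40 in C1 (adjusted p = 0.0061) and fell by 2.11 ± 0.40 in C2 (adjusted p = 0.00064), which is 3.41-fold and 4.37-fold between the means. The C1 value rested in part on C1 WT replicate 2, without which the difference was -1.06 (adjusted p = 0.034). The knockout effects differed between the lines by -0.55 (95% interval -1.75 to 0.66, adjusted p = 0.52).

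Msr1 encodes the class A macrophage scavenger receptor, which takes up modified lipoproteins, and lies at chr8:39581685-39642673 on the - strand. C1 WT libraries had 102, 147 and 62.2 normalized reads and C1 dKO libraries 24.9, 36.7 and 38.8. The groups did not overlap and the means differed 3.09-fold, but the fall of 1.54 ± 0.59 missed the threshold (adjusted p = 0.051). It was called with a pseudocount of 5, by quantile normalization, in a fit of only these groups, by edgeR and by DESeq2 (adjusted p = 0.00065 to 0.038), and without C1 WT replicate 3 (adjusted p = 0.035). In C2 the WT libraries held 0, 1 and 10 reads and no dKO library had a read. Against a floor of 3 reads over the group, Msr1 was at least 3.51-fold lower in C2 dKO cells, a bound that rests on C2 WT replicate 3, which held 10 of the 11 reads. The limma difference was not called (adjusted p = 0.063). It was called without C2 WT replicate 1, with a pseudocount of 0.1 and by DESeq2 (adjusted p = 0.0047, 0.022 and 0.0054).

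Mrc1 encodes the mannose receptor, an endocytic lectin of tissue macrophages, and lies at chr2:14229392-14332057 on the + strand. C1 WT libraries had 136, 201 and 236 normalized reads, and C1 dKO libraries 35.1, 12.6 and 51.2, without overlap. It fell by 2.67 ± 0.49 in C1 (adjusted p = 0.00043), or 5.80-fold between means, the largest called fall among the 9 genes in that line. In C2 the WT libraries held 8, 8 and 21 reads and the dKO libraries 1, 0 and 2. The ratio there was 11.8 with a 95% counting interval of 3.74 to 59.8, and the log2 difference fell by 2.68 ± 0.49 (adjusted p = 0.00042). With so few reads the size depended on the pseudocount: the difference was -4.11 with 0.1 and -1.43 with 5, and called with both. The bases before the Mrc1 start are given as the promoter of the member with the largest fall in C1, and capitals mark its 1 match to the motifs searched. They lie at chr2:14229164-14229391 (+ strand, 228 bases, RefSeq start, GRCm38.p6).
Mrc1: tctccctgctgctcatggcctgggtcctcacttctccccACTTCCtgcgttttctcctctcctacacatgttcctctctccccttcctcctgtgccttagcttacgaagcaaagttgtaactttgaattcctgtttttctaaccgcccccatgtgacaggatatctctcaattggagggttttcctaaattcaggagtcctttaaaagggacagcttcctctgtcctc
The motifs searched on both strands of the 250 bases before the start were TTGCNNAA (C/EBP), GGAAGT (ETS), TGTGGT (RUNX) and TGANTCA (AP-1). The Mrc1 match is an ETS motif on the - strand at position -211, counted from the start. Of 32851 mouse promoters in the same table, 19.7% hold GGAAGT in these 250 bases, 14.05% TGTGGT, 9.56% TTGCNNAA and 6.75% TGANTCA.

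Adgre1 encodes an adhesion G protein-coupled receptor whose surface antigen is the most used label of mouse macrophages and which eosinophils also carry. It lies at chr17:57358691-57483527 on the + strand. C1 WT libraries had 2704, 2943 and 2141 normalized reads and C1 dKO libraries 1503, 1559.7 and 1851, without overlap. The fall of 0.66 ± 0.23 in C1 was called (adjusted p = 0.032) but not under quantile normalization (adjusted p = 0.064). It was also not called without C1 WT replicate 1 or 2 or C1 dKO replicate 1 or 2 (adjusted p = 0.084 to 0.11). In C2 the direction was the opposite. WT libraries had 200.2, 260.02 and 418 and dKO libraries 1676, 988 and 1598, so that every C2 dKO library lay above every C2 WT library. Adgre1 rose by 2.30 ± 0.23 there (adjusted p = 1.1e-06), and C2 dKO cells, at 1421 ± 377, overlapped the range of C1 dKO cells, at 1638 ± 187. The knockout effect differed between the lines by 2.96 ± 0.32 (adjusted p = 6.3e-06), more than for any other of the 9 genes. Eosinophil markers rose in both lines, whereas Adgre1 fell in C1 and rose in C2. Their summed level went from between 98.8 and 123 normalized reads in C1 WT to between 8215 and 15148 in C1 dKO libraries, and from between 13.6 and 21.1 to between 272 and 379 in C2. Whether cells of that kind contributed to Adgre1 was not tested.

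Between the lines, 2 of the 9 genes had a higher and 1 a lower knockout effect in C2 than in C1 by the test, Csf1r, Adgre1 and Ccr2 as given above. Over all tested genes 15.1% had a higher and 14.3% a lower effect. For the other genes the interval of the difference included 0 or, for Ly6c2, ran from 0.0091 to 0.76 with an adjusted p of 0.12. The effect on Lyz2 differed between the lines by 0.71 (adjusted p = 0.14) and was called without C2 WT replicate 3 (1.02, adjusted p = 0.021), and that on Ly6c2 was called without C1 WT replicate 3 (0.53, adjusted p = 0.015).

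Lyz2 encodes the lysozyme of macrophages and granulocytes, an enzyme that cuts bacterial cell walls. It lies at chr10:117277331-117282321 on the - strand, next to its paralog Lyz1 at chr10:117287797-117292868. C1 WT libraries had 11550, 15869 and 14651 normalized reads and C1 dKO libraries 7308, 7693 and 9719, without overlap. The fall of 0.77 ± 0.25 in C1 was called (adjusted p = 0.024), but not without C1 WT replicate 2 or 3 or C1 dKO replicate 1 or 2 (adjusted p = 0.054 to 0.080). In C2 the WT libraries spread over 1190, 2284 and 3111 and enclosed the dKO libraries at 2320, 1619 and 2025. The C2 difference was -0.05 (95% interval -0.58 to 0.48, adjusted p = 0.90). Lyz1 had at most 4.20 normalized reads in any library, and 5.80% of the 76-base stretches of Lyz2 transcripts also occur in Lyz1.

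The bases before the starts of both lysozyme genes are shown because the pair differ so widely in level, with capitals for motif matches. Those of Lyz2 lie at chr10:117282322-117282522 and those of Lyz1 at chr10:117292869-117293118 (both - strand, read 5′ to 3′, RefSeq starts, GRCm38.p6). For Lyz2 the bases next to the start are left out because GENCODE places them in its first exon.
Lyz2: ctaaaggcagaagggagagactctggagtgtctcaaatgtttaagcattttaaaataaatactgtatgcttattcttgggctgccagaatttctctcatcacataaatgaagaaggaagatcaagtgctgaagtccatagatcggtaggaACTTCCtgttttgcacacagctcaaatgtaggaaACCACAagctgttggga
Lyz1: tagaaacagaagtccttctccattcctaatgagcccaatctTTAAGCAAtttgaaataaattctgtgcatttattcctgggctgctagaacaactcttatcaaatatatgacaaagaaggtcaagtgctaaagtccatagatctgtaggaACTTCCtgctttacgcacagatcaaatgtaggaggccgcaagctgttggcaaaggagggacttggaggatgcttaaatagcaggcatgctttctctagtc
Over the whole 250 bases, 248 could be aligned and 80.65% of those were identical. Both hold an ETS motif on the - strand at position -100. Lyz2 alone holds a RUNX motif, at position -66, and Lyz1 alone a C/EBP motif, at position -209.

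Ly6c2 encodes a GPI-anchored surface protein used to sort classical monocytes, and was among the most abundant of these transcripts in every group. It lies at chr15:75108158-75111970 on the - strand. C1 WT libraries had 32483, 28767 and 22491 normalized reads and C1 dKO libraries 16619.8, 18729 and 18521, without overlap. Ly6c2 fell by 0.62 ± 0.13 in C1 (adjusted p = 0.0010), or 1.55-fold between means, the smallest of the 7 called falls. In C2 the WT libraries had 16176, 14868 and 12834 and the dKO libraries 13318, 12045 and 11760.1. These overlapped, and the fall of 0.24 was not called (95% interval -0.50 to 0.03, adjusted p = 0.15).

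Ly6c1, the close paralog of Ly6c2, had at most 15.5 normalized reads in any library, and 9.32% of the 76-base stretches of Ly6c2 transcripts also occur in Ly6c1. The bases before both starts are given for this contrast, at chr15:75111972-75112221 and chr15:75048838-75049087 (both - strand, read 5′ to 3′, RefSeq starts, GRCm38.p6).
Ly6c2: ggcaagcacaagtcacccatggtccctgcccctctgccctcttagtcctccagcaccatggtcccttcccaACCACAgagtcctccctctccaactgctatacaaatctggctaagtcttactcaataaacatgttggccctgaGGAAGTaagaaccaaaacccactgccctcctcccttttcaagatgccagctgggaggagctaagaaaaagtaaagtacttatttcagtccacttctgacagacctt
Ly6c1: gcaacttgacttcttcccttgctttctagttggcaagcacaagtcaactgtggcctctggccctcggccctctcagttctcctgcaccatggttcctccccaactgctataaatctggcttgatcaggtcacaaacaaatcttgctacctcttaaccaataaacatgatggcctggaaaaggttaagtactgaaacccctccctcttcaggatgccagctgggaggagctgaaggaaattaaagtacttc
Of these, 216 bases could be aligned and 75.9% of them were identical. The Ly6c2 promoter holds an ETS motif at position -106 and a RUNX motif on the - strand at position -179, while no motif searched was found for Ly6c1. None of the C/EBP and AP-1 motifs was found before the starts of the 5 members in the promoter table, Mrc1, Cx3cr1, Ccr2, Lyz2 and Ly6c2, and Cx3cr1 held a RUNX motif. For Cx3cr1 all 250 bases searched, and for Ccr2 233 of them, lie in a GENCODE exon, so these windows are mostly exon sequence and are not printed. A match or its absence in this window describes the letters only.

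Of the 9 genes, 0 were called higher and 1 lower in C1 LAPS than in C1 dKO cells, where 1.43% of all tested genes were called higher and 3.03% lower. At an unadjusted p under 0.05 Lyz2 was also the only one. It had 3700, 3571 and 3769 normalized reads in C1 LAPS libraries, each below the lowest C1 dKO library at 7308. Lyz2 thus fell by a further 1.15 ± 0.25 (adjusted p = 0.014), away from its WT level, although the call was lost without C1 dKO replicate 3 (adjusted p = 0.064) or C1 LAPS replicate 2 (adjusted p = 0.055). Markers of other cells moved with it. All 8 neutrophil markers were called lower in C1 LAPS than in C1 dKO, their sum being between 35535 and 40112 normalized reads in LAPS and between 88491 and 110986 in dKO libraries. Of the 5 tested eosinophil markers 4 were called lower. The eosinophil sum was between 1006 and 2004 in LAPS and between 8215 and 15148 in dKO libraries. Of the 3 tested mast cell and basophil markers 1 was called lower, Cpa3, and 2 were not called. Itga2b of the erythroid and megakaryocyte list was called lower, whereas Pf4 was not called (0.61, adjusted p = 0.55). Pecam1 of the liver and stroma list was called lower (-1.33, adjusted p = 0.0012) and Afp was not called. The 4 progenitor markers were not called. The part of these markers in the fall of Lyz2 was not tested.

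The remaining 8 genes had intervals that included 0. Csf1r had 661, 788 and 925 normalized reads in C1 LAPS libraries, and its difference to C1 dKO was -0.20 (95% interval -0.68 to 0.27). Ccr2, with 708, 1185 and 1569 in LAPS libraries, differed by 0.16 (95% interval -0.51 to 0.84), and Adgre1, with 1567, 1724 and 1796, by 0.05 (95% interval -0.43 to 0.53). Ly6c2 stood at 19857, 16443 and 17960 in LAPS libraries, a difference of 0.0082 (95% interval -0.26 to 0.27). The intervals of the low genes were wider, for Mrc1 -1.44 to 0.62 and for Msr1 -1.56 to 0.94. Cd14 had 101.6, 100.5 and 67.5, all below the C1 dKO libraries, and its fall of 0.55 was not called (95% interval -1.40 to 0.30, adjusted p = 0.52).

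Set against C1 WT cells, which also serve in the knockout comparison, C1 LAPS cells had 7 of the 9 genes called lower and 0 higher, beside 18.3% lower and 14.2% higher of all tested genes. Csf1r fell by 2.04 ± 0.22, Cd14 fell by 2.11 ± 0.40, Ccr2 fell by 1.34 ± 0.32 and Mrc1 fell by 3.08 ± 0.49 (adjusted p = 3.5e-06, 0.00068, 0.0038 and 0.00012). Lyz2 fell by 1.92 ± 0.25 and Ly6c2 by 0.61 ± 0.13 (adjusted p = 1.7e-05 and 0.0012). Msr1, at 23.4, 28.6 and 27.4 normalized reads in LAPS libraries, fell by 1.85 ± 0.59 (adjusted p = 0.024), a call lost with a pseudocount of 0.1 (adjusted p = 0.20). It was also lost without any 1 of C1 WT replicates 1 and 2 and the 3 C1 LAPS libraries (adjusted p = 0.050 to 0.097). Adgre1 differed by -0.60 (adjusted p = 0.052), called without C1 WT replicate 3, with a pseudocount of 5, in a fit of only these groups and by edgeR (adjusted p = 0.015 to 0.049), and Cx3cr1 by -0.69 (adjusted p = 0.24).

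The WT lines themselves differed in these genes. In C2 WT cells 7 of the 9 were called lower and 0 higher than in C1 WT cells, where 21.3% of all tested genes were called lower and 19.7% higher. Csf1r was 70.6-fold lower in C2 WT (log2 difference -6.16 ± 0.22, adjusted p = 8.7e-12) and Msr1 30.45-fold lower (-5.16 ± 0.59, adjusted p = 3.2e-06). The Msr1 difference ranged from -6.58 to -3.77 over pseudocounts of 0.1 and 5, and was -4.43 without C2 WT replicate 1 and -6.11 without C2 WT replicate 3. Mrc1 was 16.1-fold, Adgre1 8.87-fold, Lyz2 6.39-fold, Cx3cr1 5.58-fold and Ly6c2 1.91-fold lower. The Cx3cr1 value rested on 7 reads over the C2 WT and 37 over the C1 WT libraries. Its log2 difference ranged from -2.49 to -1.24 over the alternatives that kept all libraries. Cd14 and Ccr2 did not follow, with 406 ± 165 and 3140 ± 680 normalized reads in C2 WT against 445 ± 289 and 2937 ± 1117 in C1 WT. Their differences were -0.00089 (95% interval -0.85 to 0.85) and 0.15 (95% interval -0.53 to 0.83). The labels give 1 line per mouse, so mouse, clone and line cannot be told apart.

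Levels of different genes are compared per kilobase of exon, as normalized reads per kb over the union of GENCODE exons. In C1 WT cells Lyz2 (10656 ± 1692) and Ly6c2 (10187 ± 1843) led and lay within their spread of each other. Adgre1 (802 ± 127), Csf1r (561 ± 66.0), Ccr2 (435 ± 165) and Cd14 (257 ± 167) followed, Ccr2 overlapping both of its neighbours within 1 SD. Mrc1, Msr1 and Cx3cr1 came last at 30.0 ± 7.95, 16.3 ± 6.69 and 2.77 ± 1.13. In C2 WT cells Ly6c2 was first alone (5338 ± 615), Lyz2 had 1668 ± 732, and Ccr2 (464 ± 101) and Cd14 (235 ± 95.04) stood above Adgre1 (90.4 ± 34.7) and Csf1r (7.94 ± 2.88). In C2 dKO cells Adgre1, at 439 ± 116, ranked next after Ly6c2 and Lyz2, above Ccr2 at 58.8 ± 16.0.

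Single libraries stood at one end of their group for most members. C1 WT replicate 2 was the highest of its group for 6 of the 9 genes and C1 WT replicate 3 the lowest for 6. C2 WT replicate 3 was the highest for 7 and C2 WT replicate 1 the lowest for 7. C1 dKO replicate 3 was the highest for 6, C2 dKO replicate 1 the highest for 6 and C2 dKO replicate 2 the lowest for 6. In C1 LAPS libraries the coefficient of variation of Lyz2 was 2.73% and that of Mrc1 5.40%, against 37.4% for Ccr2.

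Beside the 4 lists below, 19.9% of all tested genes were called lower and 17.1% higher in C1 dKO cells, with a median of -0.01. In C2 dKO cells 20.1% were called lower and 17.4% higher, with a median of -0.03. The partners and ligands of the receptors among the 9 genes were followed as a list of 9 genes, of which 7 were tested. In C1 dKO cells 3 fell, 0 rose and 4 were not called, with a list median of -0.52, and in C2 dKO cells 2 fell, 0 rose and 5 were not called, with a median of -0.83. Ccl2, the main ligand of CCR2, fell with its receptor in C1, from 192 ± 114 to 2.83 ± 2.48 normalized reads (log2 difference -5.61 ± 0.76, adjusted p = 2.8e-05). Ccl7, another ligand, held 194 reads over the C1 WT libraries and 3 over the C1 dKO libraries, a ratio of 67.7 with a 95% counting interval of 22.8 to 331 (adjusted p = 5.7e-05). In C2, Ccl2 held 15 reads in WT, 11 of them in 1 library, and 1 in dKO (adjusted p = 0.12), and Ccl7 was at or under the floor in both groups. Tlr4, the signalling receptor behind CD14, was not called in C1 (1073 ± 437 to 712 ± 135, adjusted p = 0.13) and fell in C2 from 1925 ± 223 to 1100.3 ± 272 (-0.83 ± 0.26, adjusted p = 0.018). Cx3cl1, which encodes fractalkine, had 4.28 ± 1.72 in C1 WT and 14.2 ± 9.37 in C1 dKO (adjusted p = 0.065) and was listed at 0 in all C2 libraries. With the genes at the floor in both groups left out, the C2 median over 5 genes was -0.88.

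Of 20 other macrophage genes 13 were tested, and 8 fell, 2 rose and 3 were not called in C1 dKO cells, with a median of -1.07. In C2 dKO cells 5 fell, 3 rose and 5 were not called, with a median of -0.57, or -0.51 over 12 genes with those at 0 set to their bound. Siglec1, a sialic acid-binding receptor of tissue macrophages, had 1525 reads over the C1 WT and 2 over the C1 dKO libraries (ratio 798, 95% counting interval 221 to 6595, adjusted p = 1.3e-07). Marco, a scavenger receptor, had 224 reads in C1 WT and none in C1 dKO, so it was at least 78.1-fold lower (adjusted p = 1.4e-07). Mertk, a receptor for the clearance of dead cells, fell in C1 from 78.8 ± 11.5 to 2.23 ± 1.94 normalized reads (-4.90 ± 0.62, adjusted p = 1.4e-05) and in C2 from 10 reads to none, at least 3.19-fold (adjusted p = 0.024). Marco was at 0 in all C2 libraries and Siglec1 had 5 reads in C2 WT and none in C2 dKO. Gpnmb, a glycoprotein of phagocytic macrophages, fell in both lines, from 1281 ± 209 to 89.9 ± 43.0 in C1 (-3.91 ± 0.50, adjusted p = 1.4e-05) and from 238 ± 238 to 8.97 ± 1.92 in C2 (-4.13 ± 0.50, adjusted p = 9.6e-06). Fcgr1, the high-affinity IgG receptor, was singled out after its values were seen because it too changed in opposite directions, as did Ms4a6c and Itgal of the monocyte list. It fell in C1 from 905 ± 335 to 128 ± 16.3 (-2.74 ± 0.26, adjusted p = 6.7e-07) and rose in C2 from 4 reads over the WT libraries to 177 over the dKO libraries, a ratio of 46.3 (adjusted p = 1.6e-09). The genes that rose were also named after their values were seen. Itgax, an integrin chain of myeloid and dendritic cells, rose in C1 from 3.01 ± 1.47 to 79.2 ± 32.2 (4.31 ± 0.50, adjusted p = 5.5e-06) and in C2 from 14.3 ± 8.33 to 47.6 ± 17.0 (1.81 ± 0.50, adjusted p = 0.0097). Sirpa, the receptor for CD47, rose in C1 (0.35 ± 0.09, adjusted p = 0.0067), and Apoe, a lipid carrier, rose in C2 (1.11 ± 0.24, adjusted p = 0.0017). Macrophage genes such as Cd163 and Timd4 were at 0 in every library.

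Of 18 other monocyte genes 15 were tested. In C1 dKO cells 6 fell, 3 rose and 6 were not called, with a median of -0.06, and in C2 dKO cells 4 fell, 4 rose and 7 were not called, with a median of 0.06, or 0.17 over the 14 genes not at the floor in both groups. Vcan, a matrix proteoglycan of classical monocytes, fell by 3.98 ± 0.43 in C1 and by 4.05 ± 0.43 in C2 (adjusted p = 2.8e-06 in both). F13a1, the coagulation factor XIII A chain, fell from 11973 ± 4756 to 5290 ± 293 normalized reads in C1 (adjusted p = 0.0043) and from 1141 ± 430 to 30.7 ± 4.58 in C2 (adjusted p = 1.0e-09). Fn1, which encodes fibronectin, fell in C1 from 47.9 ± 35.4 to 9.41 ± 8.03 (adjusted p = 0.037) and in C2 from 35 reads to 3 (ratio 11.2, 95% counting interval 3.52 to 56.7, adjusted p = 0.018). S100a4, a calcium-binding protein, rose in both lines, from 18.6 ± 5.03 to 220.2 ± 76.5 in C1 (3.47 ± 0.27, adjusted p = 7.0e-08) and from 4.56 ± 0.82 to 12.4 ± 1.63 in C2 (1.27 ± 0.27, adjusted p = 0.0015). Named after their values were seen, Ms4a6c fell by 1.58 in C1 (adjusted p = 0.0042) and rose by 1.30 in C2 (adjusted p = 0.014), whereas Itgal, an integrin chain of leukocytes, rose by 0.81 in C1 (adjusted p = 0.0020) and fell by 1.33 in C2 (adjusted p = 2.6e-05).

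Among 10 transcription factors of monocyte fate, 9 were tested. In C1 dKO cells 5 fell, 0 rose and 4 were not called (median -0.73), and in C2 dKO cells 1 fell, 0 rose and 8 were not called (median -0.15). Maf, which encodes a bZIP factor of macrophages, fell from 613 reads over the C1 WT libraries to 4 over the C1 dKO libraries (ratio 160, 95% counting interval 62.3 to 590, adjusted p = 5.1e-07). Klf4, a zinc finger factor needed for monocytes, fell from 124 ± 50.2 to 10.9 ± 3.55 normalized reads (-3.36 ± 0.44, adjusted p = 1.7e-05), and Irf8, which directs progenitors toward monocytes, from 885 ± 101 to 299 ± 59.7 (-1.58 ± 0.18, adjusted p = 3.7e-06). In C2 these 3 were lower before deletion than in C1, with Maf at 4 reads over the WT libraries and Irf8 at 89.0 ± 14.4 normalized reads, and none was called (adjusted p = 0.12 to 0.41). Egr1, an immediate early factor, fell in C2 from 384 ± 171 to 57.7 ± 12.2 (-2.61 ± 0.48, adjusted p = 0.00049) and was not called in C1 (adjusted p = 0.29).

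**Figure D3:**
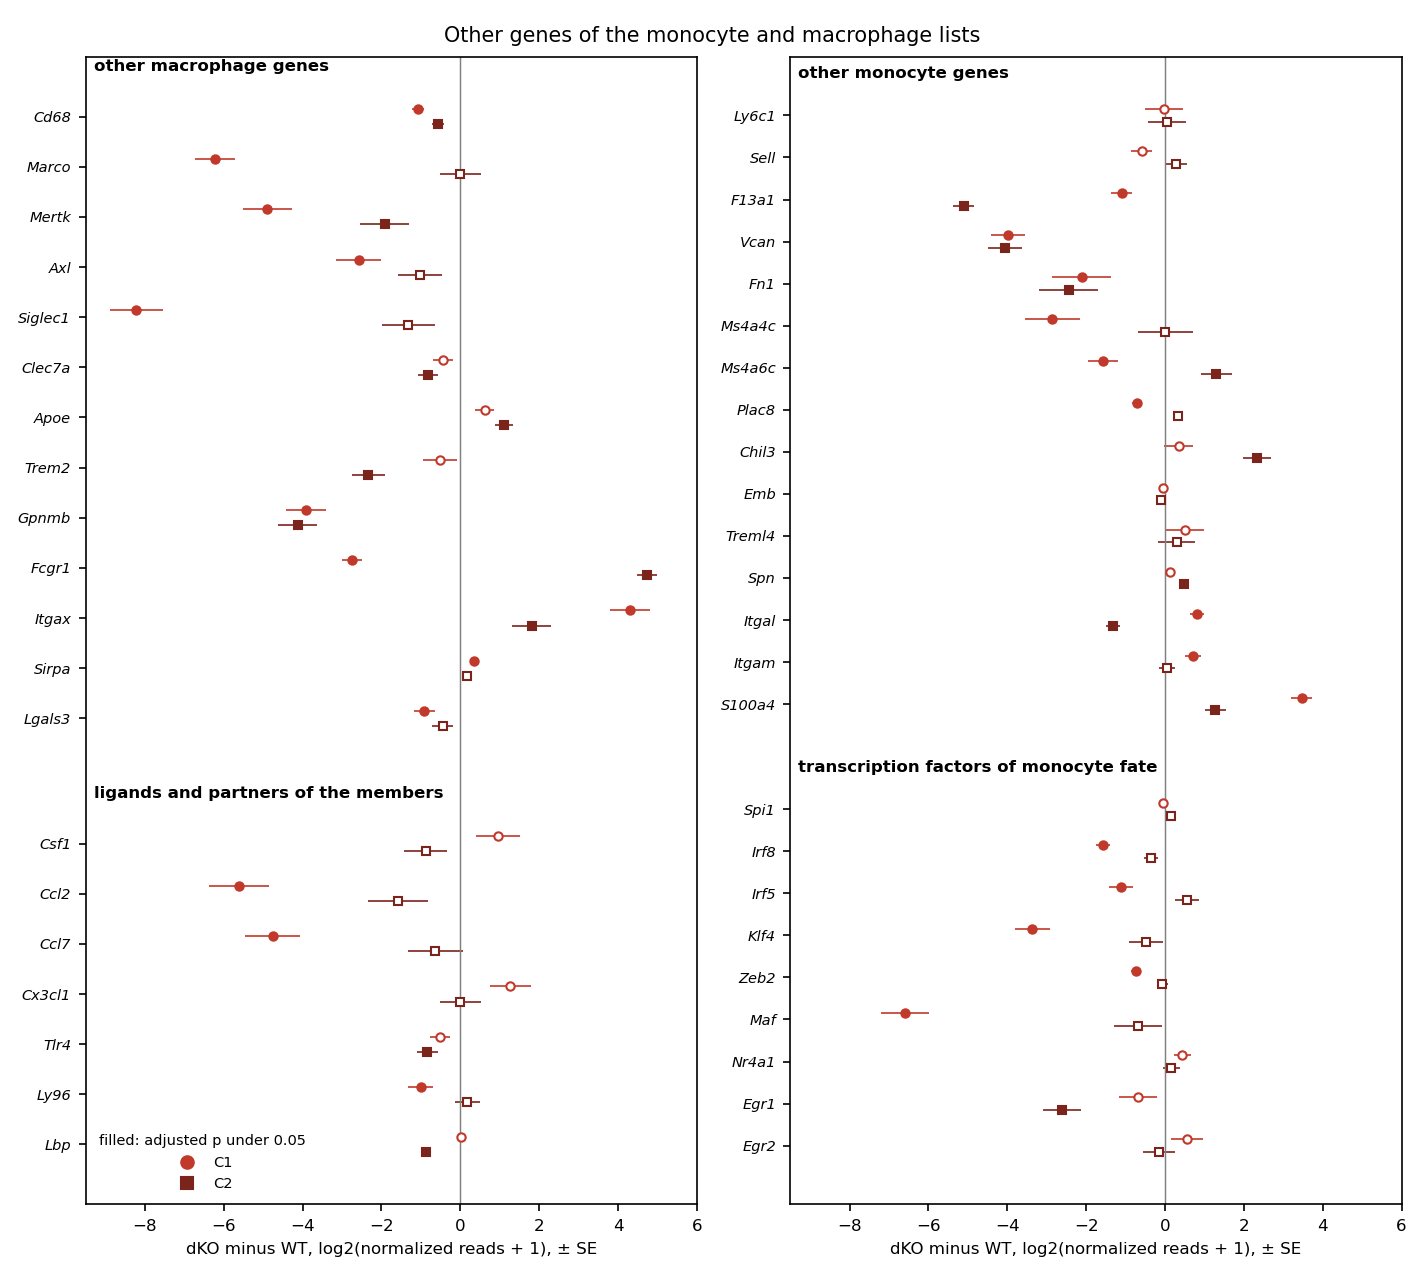
Difference of dKO minus WT in log2(normalized reads + 1) with ± 1 SE for the tested genes of the 4 lists, in C1 (circles) and C2 (squares), filled where the adjusted p was under 0.05. Genes with almost no reads in a group, such as Siglec1 and Marco in C1 dKO, are drawn at the fitted value, which depends on the pseudocount. Fcgr1 lies at -2.74 in C1 and 4.74 in C2.

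In C1 LAPS against C1 dKO cells none of the 13 macrophage genes was called, and Fn1, the only called monocyte gene, rose from 9.41 ± 8.03 to 104 ± 42.9 normalized reads (3.51, adjusted p = 0.014). Of the transcription factors, 1 fell, Nr4a1 (-1.02, adjusted p = 0.011), and 8 were not called, and of the ligands and partners none of the 7 was called.

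Markers of other cells moved with the knockout comparisons. All 8 neutrophil markers rose in C1 dKO cells, their sum going from between 21593 and 28475 normalized reads to between 88491 and 110986, whereas in C2 2 rose, 1 fell and 5 were not called, and the sums overlapped (50700.4 to 91115 in WT and 57849 to 90897 in dKO). All 5 tested eosinophil markers rose in both lines, and Epx, Prg2, Prg3 and Il5ra were at 0 in every C1 WT library. Of the 3 tested mast cell and basophil markers, 3 rose in C1, and in C2 1 rose, 1 fell and 1 was not called. All 4 progenitor markers, Kit, Cd34, Mpo and Elane, rose in both lines, Cd34 from 5.21 ± 2.08 to 2623 ± 199 in C1. Flt3, the only tested gene of 5 dendritic cell markers, rose in both. Lymphocyte markers summed to at most 3.60 normalized reads in any library, and Alb was at 0 in all. Of the tested erythroid and megakaryocyte markers Itga2b rose in both lines and Pf4 fell in C1, and of those of liver and stroma Afp fell in both lines and Pecam1 was not called in either. In C1 LAPS against C1 WT cells, 5 of the 8 neutrophil, 4 of the 5 eosinophil and all 4 progenitor markers were called higher. So were 2 of the 3 tested mast cell and basophil markers, Flt3 and Itga2b, while Afp and Pecam1 were called lower. In C2 WT against C1 WT cells, 5 neutrophil markers were called higher and 1 lower, and 3 of the 4 progenitor markers were called lower. Whether these shifts had a part in the differences of the 9 genes was not tested.

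**Figure D4:**
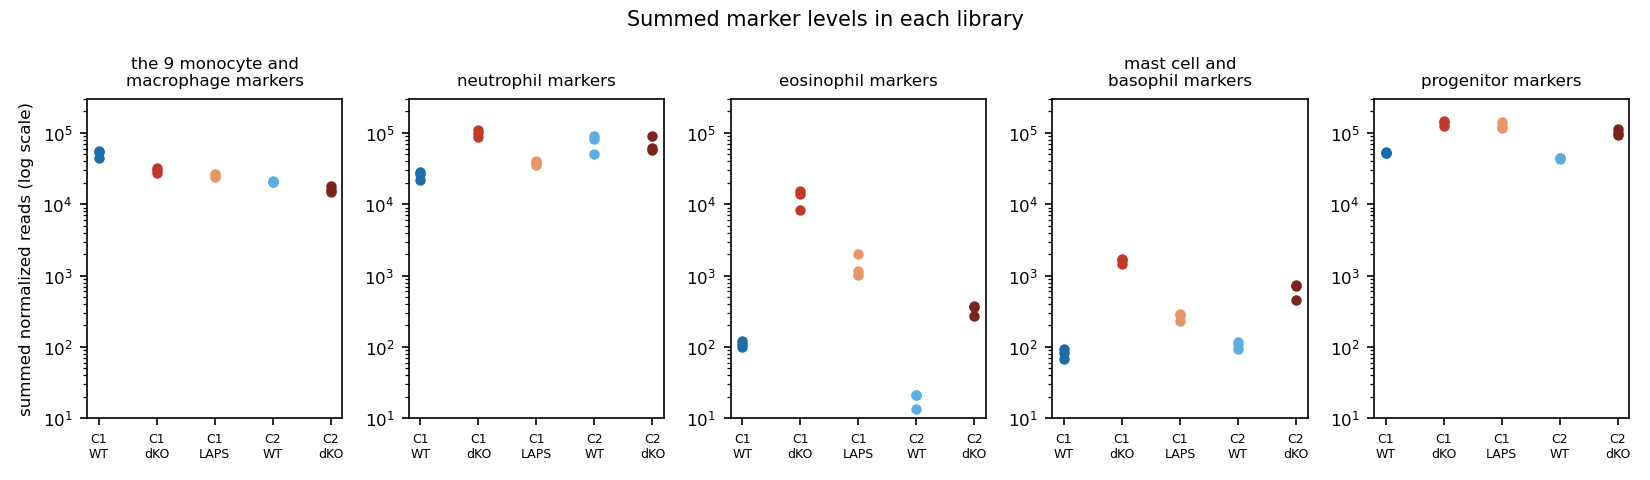
Summed normalized reads (log scale) in each library for the 9 marker genes and for markers of neutrophils (8 genes), eosinophils (6), mast cells and basophils (6) and myeloid progenitors (4). Each point is 1 library. The 9 genes together sum to between 44452 and 56338 in C1 WT and between 27237 and 32742 in C1 dKO libraries, most of it Ly6c2 and Lyz2, while the eosinophil sum rises from between 98.8 and 123 to between 8215 and 15148.

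The nearest pattern over the 5 group means was sought for each gene among 10565 genes with at least 50 normalized reads in some group, as the smallest root mean square difference of the centred log2 means. Ly6c2 lay closest to Slc38a7 (0.05), Mtm1 (0.06) and Hcls1 (0.07), and Cx3cr1 to Clec12a (0.10), Ifi27 (0.14) and Tlr1 (0.20). Csf1r was most like Gm42031 (0.19), Cachd1 (0.22) and Hoxb5os (0.30), all of which were at or near 0 in both C2 groups. Cd14 was followed by Phlda1 (0.19), Sgk1 (0.20) and Irak2 (0.24), and Lyz2 by Uba7 (0.21), Milr1 (0.34) and Plxnc1 (0.36). Adgre1 was nearest to Clec10a (0.24), Nrg4 (0.25) and Pira11 (0.25), and Ccr2 to Zfp518b (0.22), Fam20c (0.26) and Als2cl (0.27). Msr1 lay next to Gm36161 (0.25), Nlrp3 (0.30) and Ms4a6d (0.41), and Mrc1 next to Tlr8 (0.36), Clec4n (0.37) and Ifi47 (0.42). These likenesses rest on 5 points from shared libraries and are a description.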

How the data were processed

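RNA from 5 culture lines, each sampled 3 times, was sequenced as paired 76-base reads from a stranded poly(A) library kit. Per the labels and the study's methods, the authors aligned reads to mm10 with STAR 2.5.3a, counted them per gene with HTSeq 0.10.0 and divided by DESeq2 1.26.0 size factors. The annotation and strand setting of the counting are not given in the sources used here. The deposited signal values are these normalized reads, and 3 columns that matched no sample were not used. The 5 rows that name no gene held 22.4 to 26.2% of reads and were left out.

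Whole reads were recovered from the deposited signal as multiples of the smallest step, with 99.98 to 100% of values whole within 0.1 read. Genes that reached 10 normalized reads in 3 or more libraries were tested with limma 3.58.1 (R 4.3.3, trend option, 1 mean per group, all 15 libraries) on log2(value + 1), with Benjamini-Hochberg adjustment over all tested genes. The difference between lines was an interaction term. edgeR 4.0.16 and DESeq2 1.42.0 on recovered reads, a replicate block, pseudocounts of 0.1 and 5, leaving out each library, quantile normalization, testing every gene with a read, a fold limit and fitting just the groups under comparison were alternatives. The fit was also run on simulated data in which the changed genes had a mean of 10 or more normalized reads. That run does not bear on genes near the floor. Intervals and floors of 3 reads over a group cover counting error only.

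The 9 genes and the lists were chosen with earlier results of these data known. By rule, the genes named besides the 9 were Cebpa, Cebpb and Cebpe, as a check of the labels, and the paralogs Lyz1 and Ly6c1. The rule also took the 4 tested genes of each list with the largest mean log2 difference over both knockout comparisons in absolute value. It further took the 3 genes most like each member. Fcgr1, Itgax, Sirpa, Apoe, Ms4a6c, Itgal, Nr4a1, Cd163, Timd4 and the single marker genes of other cell types were named outside that rule, after their values were seen. Marker lists were given as counts and sums. Gene positions and exon lengths are from GENCODE (mm10), promoter sequences from RefSeq (GRCm38.p6, the same build). Promoters were found for 5 of the 9 genes, and sequence overlapping an exon was not printed.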

Additional observations from a re-analysis of the deposited data

Results flagged for a closer look

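The difference of dKO minus WT cells was not the same in lines C1 and C2 for 3 of the 9 genes, by the interaction term in limma. By the same term 15.1% of all tested genes were called higher and 14.3% lower. For Csf1r the log2 difference in C2 minus that in C1 was 2.27 (adjusted p = 7.0e-05), lower in every C1 dKO than in every C1 WT library and overlapping in C2. For Adgre1 it was 2.96 (adjusted p = 6.3e-06), lower in every C1 dKO library and higher in every C2 dKO library than in the WT libraries of the same line. For Ccr2 it was -1.49 (adjusted p = 0.020), lower in all dKO libraries of both lines, and this call was lost without C1 dKO replicate 3, C2 WT replicate 3 or C2 dKO replicate 2 (adjusted p = 0.058, 0.053 and 0.054).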

How the results depend on the processing

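Over 810 values recomputed under the alternatives, 746 kept their direction and side of the threshold, 20 lost a call, 17 gained one and 27 changed sign. With a log2 difference of at least 1 also required, the members called in C1 dKO against C1 WT numbered 4 in place of 7, beside 971 of 12673 tested genes lower and 778 higher under the same limit. With libraries left out, the count in C1 LAPS against C1 dKO was 0 to 1, being 0 without C1 dKO replicate 3 or C1 LAPS replicate 2. The changes of sign were in values that were not called. With libraries left out, Lyz2 in C2 dKO against C2 WT ranged from -0.44 to 0.25. In C1 LAPS against C1 dKO, Adgre1 ranged from -0.0052 to 0.14, Ccr2 from -0.10 to 0.48, Mrc1 from -0.97 to 0.0020 and Ly6c2 from -0.061 to 0.075. In C2 WT against C1 WT, Cd14 ranged from -0.47 to 0.49 (0.064 under quantile normalization) and Ccr2 from -0.18 to 0.41. The difference between lines for Mrc1 was 1.06 with a pseudocount of 5, 0.29 under quantile normalization and -0.57 to 0.44 with libraries left out. For Msr1 it was -1.79 with a pseudocount of 0.1, -3.27 by edgeR, -2.60 by DESeq2 and -0.65 to 1.02 with libraries left out. The cause was not tested.

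Quantile normalization turned the balance of calls over all genes in 5 of 6 comparisons. C1 dKO against C1 WT had 2170 higher and 2516 lower and then 2681 and 2052, and C1 LAPS against C1 WT 1796 and 2322 and then 2521 and 1910. It also turned in C2 dKO against C2 WT (2211 and 2549, then 2416 and 2289), C2 WT against C1 WT (2493 and 2699, then 2886 and 2378) and the difference between lines (1910 and 1810, then 1752 and 1923), but not in C1 LAPS against C1 dKO. Over all genes C1 LAPS against C1 dKO had 181 higher and 384 lower, and without C1 LAPS replicate 3 80 and 196. With the replicate number as a block the member counts stayed at 7, 4, 3, 1, 7 and 7 in the 6 comparisons. Deviations of same-numbered libraries correlated between -0.32 and 0.30 in 30 pairs, 5 of them over 0.1. The numbers were not taken as a pairing. Of 15 libraries, 8 correlated best with their own number of the 3, so a weak pairing is not excluded. Few reads limit Cx3cr1 in all groups and Mrc1 and Msr1 in C2.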
